A study of Mus musculus with 6 samples.

Results

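Integrins and the proteins that tie them to the actin skeleton were followed in Hepa1-6 cells, which were grown out of a mouse hepatoma. The members were the protein-coding rows of the deposited table whose symbol begins with Itga or Itgb, 28 in all, without the binding proteins Itgb1bp1, Itgb1bp2 and Itgb3bp. Added to these were 12 genes of the focal adhesion: Tln1, Tln2, Vcl, Pxn, Ptk2, Ilk, Fermt1, Fermt2, Parva, Zyx, Actn1 and Actn4. This gave 40 of the table's 55573 rows, and 27 of them had enough counts to be tested. The rule used names only and no measured value. Bulk RNA-seq covered 3 Matr3 knockout libraries, from cells edited with CRISPR/Cas9, and 3 wild-type libraries of the same line. The labels give no other allele or agent for either group. Separate cultures are not named for the libraries, nor whether the edited cells were 1 clone or several, so p-values speak only of the spread among the 6 libraries, and that spread may be technical. Of 8 genes fixed as markers of hepatocytes and hepatoma, 5 (Alb, Apoa1, Ttr, Trf and Hnf4a) were under 1 CPM (counts scaled to library size) in every library, Ttr at 0. The fetal liver gene Afp was at 2.14 to 3.55 CPM in the knockout and 4.56 to 5.06 CPM in the wild type and was not called. The keratin genes Krt8 and Krt18 were called higher in the knockout. Krt8 was at 755 to 762 CPM in the knockout and 362 to 445 CPM in the wild type. Krt18 was at 259 to 309 CPM in the knockout and 210 to 232 CPM in the wild type. Of 4 cholangiocyte markers, Krt19 was at 624 to 663 CPM in the knockout and 269 to 295 CPM in the wild type and made up nearly all of the summed CPM (644 to 683 in the knockout and 287 to 315 in the wild type), while Sox9 and Epcam were not called and Krt7 was at or near 0. Of 6 endothelial markers, Cdh5 was at 0.344 to 0.606 CPM in the knockout and 1.98 to 2.69 CPM in the wild type and carried the difference in the summed CPM (1.16 to 1.66 in the knockout and 3.04 to 3.89 in the wild type). The other 5 were under 1 CPM in every library, with Emcn at 0, and Pecam1, the only one of them tested, was not called. The part of these differences in the results was not tested.

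Integrins are cell surface receptors made of 1 alpha and 1 beta subunit, which bind matrix proteins or receptors on other cells and pass force and signals both ways across the membrane. The pairing decides the ligand: most alpha subunits for collagen, laminin and fibronectin pair with β1, αv pairs with several beta subunits, and β2 and β7 serve leukocytes. Inside the cell talin and kindlin bind the beta tail and switch the receptor on, vinculin and α-actinin bind actin, and paxillin, focal adhesion kinase and the ILK-parvin complex relay signals. In the liver, hepatocytes carry few integrins, and liver tumour cells often carry more.

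Library totals lay between 23126778 and 30794032 counts in the knockout and between 20736570 and 27578804 in the wild type. The targeted gene, Matr3, was at 75.9, 86.0 and 75.2 CPM in knockout libraries 1 to 3, against 129, 125 and 134 CPM in wild-type libraries 1 to 3 (log2 fold change -0.71, SE 0.0899, adjusted p = 0.00270, edgeR quasi-likelihood test), lower in all knockout libraries but not lost. Knockout library 2 and wild-type library 1 stood apart from the others of their groups. Wild-type library 1 had the smallest total yet held counts in the most genes. These were 23440 genes, against 20773 and 20931 in wild-type libraries 2 and 3 and 20450 to 21217 in the knockout libraries. Across 14666 genes, the tie between GC content and how far a library departed from the 6-library mean was r = 0.36, -0.32 and 0.34 in knockout libraries 1 to 3 and at -0.037, -0.061 and -0.23 in wild-type libraries 1 to 3. This is a description across genes, which are not replicates. Of 14842 tested genes 2252 were called at a Benjamini-Hochberg adjusted p under 0.05, which is 15.2%, with 7.69% higher and 7.48% lower in the knockout. Leaving out 1 library moved that count to between 807 (without wild-type library 3) and 4295 (without knockout library 2). The count reached 7556 when knockout library 2 was dropped together with library 1 of the wild type.

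Of 28 integrin rows, 16 were tested, 11 reached a mean of 5 CPM over the 6 libraries, and 12 were too low to test. Levels of different genes are compared here per gene length, in the authors' FPKM (fragments scaled to gene length and library size). Among alpha subunits Itga5, the fibronectin receptor subunit, was the highest, at 51.7 ± 0.731 FPKM in the knockout and 49.3 ± 1.08 FPKM in the wild type (SD, n = 3 each). It made up 37.0% to 39.4% of the summed alpha FPKM in the knockout and 38.3% to 40.4% in the wild type. Itga3 and Itga6, which bind laminins, and Itgav, which binds RGD-containing proteins such as vitronectin, followed at 34.9 to 36.8, 21.03 to 24.6 and 16.1 to 20.6 FPKM in the knockout, against 25.3 to 26.7, 23.8 to 28.7 and 16.8 to 20.5 FPKM in the wild type. In the knockout the ranges of these 4 genes did not overlap, and in the wild type those of Itga6 and Itga3 did. The remaining 7 tested alpha genes all stayed under 3 FPKM in every library.

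On the beta side 3 genes led. Itgb5, a partner of αv, Itgb7 and Itgb2, the beta subunits of leukocyte integrins, lay close together. They were at 29.1 to 30.4, 27.2 to 28.2 and 21.3 to 24.0 FPKM in the knockout, and at 21.01 to 26.4, 28.7 to 36.6 and 22.1 to 24.4 FPKM in the wild type. In the wild type the ranges of Itgb5 and Itgb2 overlapped. Itgb3, which pairs with αv and αIIb, was far lower at 1.68 to 1.91 FPKM in the knockout and 1.41 to 1.84 FPKM in the wild type, and Itgb4, the hemidesmosome subunit that pairs with α6, was at 0.0641 to 0.171 FPKM in the knockout and 0.107 to 0.333 FPKM in the wild type. Itgb1 (ENSMUSG00000025809; chromosome 8, 129412135 to 129459681, plus strand), whose product is the main partner of α1, α2, α3, α5, α6, α7 and α10, is listed at 0 counts in all 6 libraries. At these depths 0 counts allow a level of up to 0.0974 to 0.130 CPM in the knockout libraries and 0.109 to 0.145 CPM in the wild-type libraries, counting error only. No other row of the table overlaps it. The row lies in a run of 13 consecutive rows on chromosome 8, 6 of them protein-coding, that are at 0 in every library, between Nrp1 and the pseudogene Gm21399. Nrp1 had 190, 258 and 191 counts in the knockout and 136, 223 and 199 in the wild type. What lies behind the 0 was not tested. The leukocyte beta subunits also stood without most of their partners. Itga4, Itgam and Itgad, which pair with β7 or β2, were at 0 in all libraries and Itgax had 2 counts in all. Itgae, the αE partner of β7, was at 0.808 to 0.861 CPM in the knockout and 0.449 to 1.82 CPM in the wild type, and 4.94% of its span is shared with Haspin on the opposite strand. Of 6 leukocyte markers, 5, with the pan-leukocyte gene Ptprc among them, were under 1 CPM in every library, and the other was Cd68 at 12.4 to 15.9 CPM in the knockout and 10.5 to 11.9 CPM in the wild type.

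Of the 13 untested members, 7 had no count in any library: Itga4, Itga8, Itgad, Itgam, Itgb1, Itgb2l and Fermt1, the kindlin of epithelia. The other 6 (Itga9, Itga11, Itgax, Itgb6, Itgb8 and Itgbl1) had at most 11 counts over the 6 libraries. The span of Itgam lies almost wholly within another protein-coding row on the same strand, Gm49368, and that of Itgb2l within Gm49948 on the opposite strand, so their counts are uncertain.

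**Figure D1:**
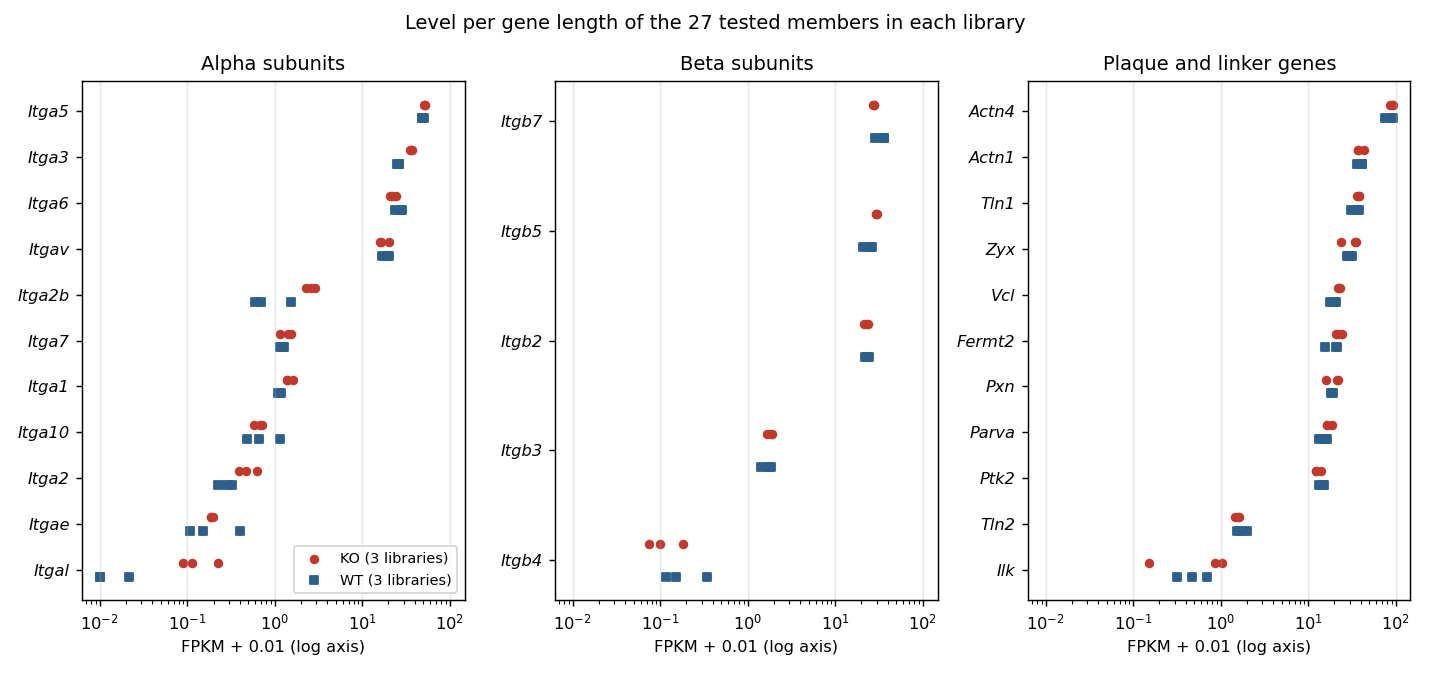
FPKM of the 27 tested members in each library, with 0.01 added for the log axis, for alpha subunits (left), beta subunits (middle) and plaque genes (right). Circles are the 3 knockout libraries and squares the 3 wild-type libraries; Itga5, Itga3, Itga6 and Itgav stand above 15 FPKM in every library and all other alpha subunits below 3 FPKM.

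Between knockout and wild type, 3 of 27 tested members were called, all of them alpha subunits and all higher in the knockout: Itga3, Itga2b and Itgal. That is 11.1% of the members, where 15.2% of all tested genes were called, so the share is no result about the members. None was called lower by edgeR (7.48% of all tested genes were), DESeq2, limma voom or limma on log2(FPKM + 1), and at an unadjusted p under 0.05 edgeR had 7 members higher and 2 lower, 9 of 27, where 31.0% of all tested genes passed. The median log2 fold change of the 27 was 0.072, against -0.019 for all tested genes, and 17 lay above 0. In 10 of the 27 members the CPM ranges of the groups did not overlap (37.0%), 9 of them higher in the knockout and 1 lower. This held for 36.6% of all tested genes, 18.3% higher and 18.4% lower. The authors' deposited table calls the same 3 members higher and none lower, with log2 fold changes of 0.44 for Itga3, 1.11 for Itga2b and 0.93 for Itgal. The edgeR values were 0.45, 1.46 and 4.81, so the 2 sets of fold changes are not the same measure. Both rest on the same counts, so the shared calls are no independent support. Dropping library 1 or 3 of the knockout, or library 2 or 3 of the wild type, left 1 call each time, that of Itgal, which passed the filter on low counts through its knockout libraries alone and so is no measure of stability. Without knockout library 2 there were 5 calls, and with wild-type library 1 dropped as well 16, of which 10 were higher and 6 lower. The counts over all tested genes rose in both fits too, as given above, so these counts are no result about the members.

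**Figure D2:**
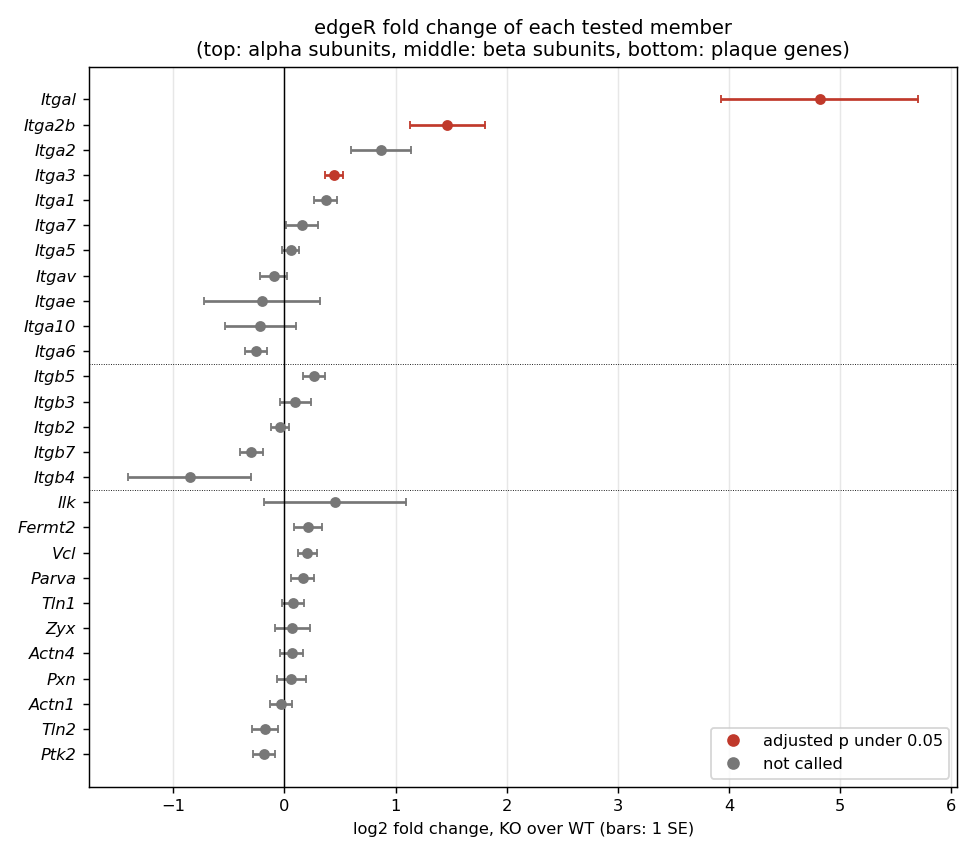
Log2 fold change of knockout over wild type for each of the 27 tested members, from edgeR with bars of 1 SE. Red points passed an adjusted p of 0.05 (Itgal at 4.81, Itga2b at 1.46 and Itga3 at 0.45), and all beta subunits and plaque genes are grey.

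Among the laminin receptors, Itga3 (ENSMUSG00000001507; chromosome 11, 94935300 to 94967627, minus strand) encodes the α3 subunit, which with β1 binds the laminins of the basement membrane. It was at 208, 198 and 209.6 CPM in knockout libraries 1 to 3, against 147, 153 and 152 CPM in wild-type libraries 1 to 3. Every knockout library lay above every wild-type library, and the spread within each group was small. The means were 205 ± 6.25 CPM over the knockout libraries and 150.5 ± 2.94 CPM over the wild-type libraries (SD, 3 libraries each), a 1.36-fold higher level (log2 fold change 0.45, SE 0.0794, adjusted p = 0.00932, edgeR quasi-likelihood test). Dropping library 1 or 3 of the knockout, or library 2 or 3 of the wild type, ended the call (adjusted p from 0.0504 to 0.0591, log2 fold change from 0.44 to 0.49 over all alternatives). When library 2 of the knockout and library 1 of the wild type were both dropped the log2 fold change was 0.45 (edgeR adjusted p = 7.15e-06). Both libraries stood apart within their groups, so dropping them narrows the spread, and that p is no added support. Itga6, the α6 subunit, was at 193, 224 and 202 CPM in knockout libraries 1 to 3, against 222, 262 and 254 CPM in wild-type libraries 1 to 3 (log2 fold change -0.25, SE 0.102, adjusted p = 0.132). The lower values were in the knockout, but its library 2 reached above wild-type library 1. Itga6 was called lower under 2 of 17 alternatives, among them the fit without knockout library 2 (-0.31, edgeR adjusted p = 0.0420). Itga3 made up 25.4% to 27.4% of the summed alpha FPKM in the knockout and 20.7% to 21.1% in the wild type, while Itga6 made up 15.8% to 17.9% in the knockout and 19.8% to 22.2% in the wild type; these shares were not tested. Itga7, a laminin receptor best known from muscle, was at 12.3, 9.21 and 11.5 CPM in knockout libraries 1 to 3, against 10.1, 9.27 and 10.2 CPM in wild-type libraries 1 to 3, with overlapping groups (log2 fold change 0.16, SE 0.145, adjusted p = 0.498).

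Among the receptors of RGD-containing proteins, Itga2b (ENSMUSG00000034664; chromosome 11, 102344123 to 102360948, minus strand) encodes αIIb, which with β3 forms the fibrinogen receptor of platelets. It was at 15.8, 12.4 and 14.1 CPM in knockout libraries 1 to 3, against 8.53, 3.74 and 3.19 CPM in wild-type libraries 1 to 3. Knockout libraries were all higher, and wild-type library 1 lay well above the other wild-type libraries. The means were 14.1 ± 1.72 CPM over the knockout libraries and 5.15 ± 2.94 CPM over the wild-type libraries (SD, 3 libraries each), a 2.76-fold higher level (log2 fold change 1.46, SE 0.338, adjusted p = 0.0242, edgeR quasi-likelihood test). Dropping library 1 or 3 of the knockout, or library 2 or 3 of the wild type, ended the call (adjusted p from 0.0573 to 0.0862). The log2 fold change was 2.04 without wild-type library 1 and 2.10 with knockout library 2 left out too (edgeR adjusted p = 4.44e-07). As for Itga3, that p is no added support, since the libraries left out are those that stood apart. The summed CPM of 4 platelet and megakaryocyte markers was 1.21 to 1.38 in the knockout and 2.52 to 3.14 in the wild type. Gp9 was at 0 in all libraries, and 2 of the 4, Pf4 and Ppbp, were tested and were lower in the knockout with all 6 libraries in the fit. Gp1ba, too low to test, went the other way, at 0.351 to 0.542 CPM in the knockout and 0.186 to 0.342 CPM in the wild type. In bulk RNA, fewer cells that express a gene and less RNA per cell cannot be told apart. Itga5 was at 259, 249 and 256 CPM in knockout libraries 1 to 3, against 244, 249 and 241 CPM in wild-type libraries 1 to 3 (log2 fold change 0.057, SE 0.0786, adjusted p = 0.656). Its groups did not overlap, but the margin between them was under 1 CPM. Itgav was at 174, 219 and 177 CPM in knockout libraries 1 to 3, against 183, 205 and 220.4 CPM in wild-type libraries 1 to 3 (log2 fold change -0.096, SE 0.120, adjusted p = 0.625), with overlapping groups and its highest knockout value in library 2.

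The promoters of both called genes with an entry in RefSeq's table are shown because these are the stretches upstream of the members that moved. Of 40 members 28 had an entry; Itgal had none. Each runs from 250 bases before to 50 bases after the gene's start, 5′ to 3′ on the gene's strand, in RefSeq's build GRCm38.p6, whose coordinates for these genes differ from the table's. Capitals mark the GC box GGGCGG and the ETS-type core AGGAAG, searched on both strands (CCGCCC and CTTCCT on the other strand).
Itga3, chr11:95076665-95076964, minus strand: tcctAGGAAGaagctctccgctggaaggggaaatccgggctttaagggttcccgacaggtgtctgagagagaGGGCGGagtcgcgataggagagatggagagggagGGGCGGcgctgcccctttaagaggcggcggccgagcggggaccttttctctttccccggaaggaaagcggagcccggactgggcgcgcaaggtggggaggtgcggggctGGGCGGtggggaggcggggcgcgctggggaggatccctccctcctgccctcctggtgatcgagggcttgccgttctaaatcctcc
Itga2b, chr11:102469834-102470133, minus strand: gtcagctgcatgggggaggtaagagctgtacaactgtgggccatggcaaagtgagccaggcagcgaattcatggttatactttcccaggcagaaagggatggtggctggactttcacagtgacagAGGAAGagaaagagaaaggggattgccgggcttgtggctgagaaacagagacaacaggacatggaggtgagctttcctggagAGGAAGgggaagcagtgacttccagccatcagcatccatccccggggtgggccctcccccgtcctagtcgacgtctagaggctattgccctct
The Itga3 window, the first of 2 entries for that gene, held 3 GC boxes and 1 ETS-type core, with 24 CpG dinucleotides and 66.7% GC. The other Itga3 entry, chr11:95069149-95069448, which is not printed, held 1 GC box and 1 ETS-type core, with 5 CpG dinucleotides and 52.3% GC, and the data used here do not tell which of the 2 starts is in use. The Itga2b window held 0 GC boxes and 2 ETS-type cores, with 6 CpG dinucleotides and 56.0% GC. The median window of all 32851 promoters in the table had 7 CpG dinucleotides and 52.7% GC. Of those promoters 35.7% hold a GC box and 35.4% an ETS-type core, so both words are common, and a match is a description and not a site. The TATA box TATAAA was in none of these 3 windows on either strand and is in 13.6% of all promoters.

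Among the leukocyte receptors, Itgal (ENSMUSG00000030830; chromosome 7, 126895432 to 126934310, plus strand) encodes αL, which with β2 forms LFA-1, the receptor for ICAM-1. It had 16, 44 and 15 counts in knockout libraries 1 to 3, against 0, 2 and 0 counts in wild-type libraries 1 to 3. All knockout libraries held some counts, library 2 the most, and only 1 wild-type library held any. In CPM this was 0.688, 1.40 and 0.527 in the knockout and 0, 0.0748 and 0 in the wild type. The summed counts, 75 against 2, give a ratio of 33.6 with an exact 95% counting interval of 8.99 to 283. That interval leaves out the spread between libraries, and the limit from the filter, given below, holds for it as well. edgeR gave an adjusted p of 0.0108, and its fitted log2 fold change of 4.81 depends on the prior count. Itgal passed the filter on low counts through its knockout libraries alone, so it had to differ once it was tested. At a mean of at least 1 CPM it was not tested, and limma on log2(FPKM + 1) did not call it (adjusted p = 0.102). Its partner Itgb2 is among the abundant beta genes, and its ligand gene Icam1, named after its value was seen, was at 1.76, 2.74 and 3.09 CPM in knockout libraries 1 to 3, against 1.35, 0.860 and 0.570 CPM in wild-type libraries 1 to 3 (log2 fold change 1.46, SE 0.380, adjusted p = 0.0365). The Icam1 call was lost with library 1 or 3 of the knockout, or library 2 or 3 of the wild type, dropped (edgeR adjusted p from 0.0506 to 0.128). Summed CPM of the 6 leukocyte markers was 12.4 to 16.0 in the knockout and 10.7 to 11.9 in the wild type, nearly all of it Cd68; Adgre1, Cd3e and Lyz2 were at 0, and none was called.

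**Figure D3:**
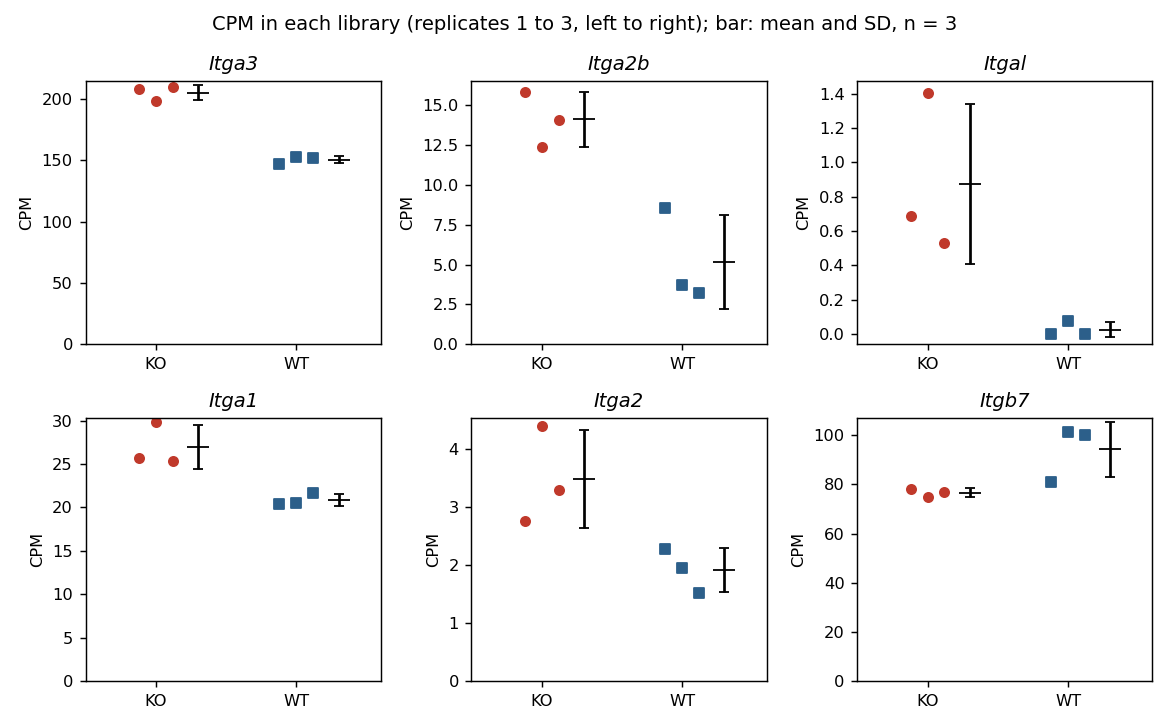
CPM in each library for the 3 called members (top row) and for Itga1, Itga2 and Itgb7, the uncalled members with the smallest p (bottom row). Bars are the mean and SD over 3 libraries; in each panel the knockout libraries, on the left, do not overlap the wild-type libraries, on the right.

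The collagen receptor genes Itga1 and Itga2 encode α1 and α2, which with β1 bind collagens IV and I. Itga1 was at 25.7, 29.8 and 25.3 CPM in knockout libraries 1 to 3, against 20.4, 20.5 and 21.7 CPM in wild-type libraries 1 to 3. All knockout libraries were higher, but the adjusted p lay just past the threshold (log2 fold change 0.37, SE 0.106, adjusted p = 0.0501). It was called under 6 of 17 alternatives, among them protein-coding genes only (edgeR adjusted p = 0.0344) and the fit with the GC and length trend removed (0.00343). Itga1 shares part of its span with Pelo and Gm49395 on the same strand, so its value is uncertain to that extent. Itga2 was at 2.75, 4.40 and 3.30 CPM in knockout libraries 1 to 3, against 2.28, 1.94 and 1.52 CPM in wild-type libraries 1 to 3, also with no overlap (log2 fold change 0.87, SE 0.268, adjusted p = 0.0624), and was called under 4 of 17 alternatives. Its level was low, at 0.385 to 0.621 FPKM in the knockout and 0.213 to 0.314 FPKM in the wild type. Itga10, a collagen receptor of cartilage, overlapped between groups at 2.93 to 3.70 CPM in the knockout and 2.47 to 5.97 CPM in the wild type (log2 fold change -0.22, SE 0.320, adjusted p = 0.681).

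Of 10 beta subunit genes, 5 were tested and 0 called by edgeR, DESeq2, limma voom or limma on log2(FPKM + 1), with 1 higher and 1 lower at an unadjusted p under 0.05 in edgeR. Among all tested genes 15.2% were called and 31.0% passed unadjusted, so with 5 genes the count of 0 is no result about the beta subunits. Itgb5 was at 104, 103 and 108 CPM in knockout libraries 1 to 3, against 76.1, 93.7 and 91.5 CPM in wild-type libraries 1 to 3 (log2 fold change 0.27, SE 0.1004, adjusted p = 0.113), higher in all knockout libraries by a small margin. Itgb7 was at 78.3, 74.8 and 76.9 CPM in knockout libraries 1 to 3, against 81.1, 101 and 100.1 CPM in wild-type libraries 1 to 3 (log2 fold change -0.30, SE 0.104, adjusted p = 0.0913). The knockout values of Itgb7 lay close together and below all wild-type values, of which library 1 was the lowest. Itgb7 was called lower under 2 of 17 alternatives, among them the fit without wild-type library 1 (-0.38, edgeR adjusted p = 0.0255). Itgb5 made up 35.5% to 36.4% of the summed beta FPKM in the knockout and 28.6% to 29.6% in the wild type, and Itgb7 33.2% to 34.9% in the knockout and 39.1% to 41.4% in the wild type. Itgb5 thus held the larger share in every knockout library and Itgb7 in every wild-type library; these shares were not tested. Itgb2 was at 65.3, 72.6 and 70.9 CPM in knockout libraries 1 to 3, against 68.7, 74.4 and 71.3 CPM in wild-type libraries 1 to 3, with groups that overlapped (log2 fold change -0.038, SE 0.0841, adjusted p = 0.791). Itgb3 was at 10.8, 9.82 and 11.3 CPM in knockout libraries 1 to 3, against 8.48, 10.4 and 10.9 CPM in wild-type libraries 1 to 3, again with overlap (log2 fold change 0.10, SE 0.141, adjusted p = 0.666). Itgb4 had 60 counts in the knockout and 97 in the wild type (log2 fold change -0.85, SE 0.551, adjusted p = 0.333), and wild-type library 1 held 51 of these. Summed over the family, alpha FPKM was 135 ± 2.47 in the knockout and 126 ± 4.85 in the wild type, and beta FPKM was 82.0 ± 1.45 in the knockout and 83.4 ± 8.54 in the wild type (SD, n = 3 each). These sums hold Itgb1 at 0.

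Of 12 plaque and linker genes, 11 were tested and 0 were called by edgeR, DESeq2, limma voom or limma on log2(FPKM + 1); edgeR had 1, Vcl, higher at an unadjusted p under 0.05 and 0 lower. Set against the 15.2% called and 31.0% unadjusted among all tested genes, a count of 0 in 11 is no result about the plaque. Their log2 fold changes ran from -0.18 to 0.46 with a median of 0.072. Without knockout library 2 and wild-type library 1 the fit called Vcl, Pxn, Zyx and Ilk higher and Actn1, Ptk2 and Tln2 lower. The count over all tested genes rose steeply in that fit too, as given above, so these calls are no result about the plaque. Talins link the beta tail to actin. Tln1 was at 374, 368 and 358 CPM in knockout libraries 1 to 3, against 309, 378 and 358 CPM in wild-type libraries 1 to 3 (log2 fold change 0.075, SE 0.0989, adjusted p = 0.644). Wild-type library 1 was the lowest and the rest lay together. Tln2, its paralog, was at 26.6, 29.6 and 29.0 CPM in knockout libraries 1 to 3, against 28.4, 31.1 and 36.5 CPM in wild-type libraries 1 to 3 (log2 fold change -0.17, SE 0.117, adjusted p = 0.354), with overlapping groups. Per gene length Tln1 exceeded Tln2 24.2-fold in the knockout and 20.4-fold in the wild type. The log2 ratio was 4.60 ± 0.105 in the knockout and 4.35 ± 0.153 in the wild type (SD, n = 3 each; exact two-sided permutation p = 0.1, adjusted p = 0.2 over 2 ratios), and 0.1 is the smallest p that 3 against 3 can give.

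Kindlins bind the beta tail beside talin. Fermt2, which encodes kindlin-2, was at 109, 127 and 113 CPM in knockout libraries 1 to 3, against 82.7, 107 and 111 CPM in wild-type libraries 1 to 3 (log2 fold change 0.22, SE 0.126, adjusted p = 0.289). Wild-type library 1 lay apart below the others. Vcl, vinculin, which reinforces the link from talin to actin under force, was at 186, 188 and 180.3 CPM in knockout libraries 1 to 3, against 148, 169.5 and 163 CPM in wild-type libraries 1 to 3 (log2 fold change 0.21, SE 0.0871, adjusted p = 0.148). Its knockout libraries were all higher than its wild-type libraries, and no adjusted p passed with all 6 libraries. Actn4 and Actn1 encode the nonmuscle α-actinins, which crosslink actin. Actn4, the most abundant member per length at 90.3 ± 4.03 FPKM in the knockout and 85.7 ± 9.82 FPKM in the wild type (SD, n = 3 each), was at 565, 522 and 571 CPM in knockout libraries 1 to 3, against 467, 575 and 542 CPM in wild-type libraries 1 to 3 (log2 fold change 0.066, SE 0.104, adjusted p = 0.702). Actn1 was at 208, 237 and 204 CPM in knockout libraries 1 to 3, against 204, 230.2 and 228 CPM in wild-type libraries 1 to 3 (log2 fold change -0.030, SE 0.0985, adjusted p = 0.863). Both had overlapping groups. The log2 ratio of Actn1 to Actn4 in FPKM was -1.21 ± 0.188 in the knockout and -1.11 ± 0.0615 in the wild type (SD, n = 3 each; exact two-sided permutation p = 0.4, adjusted p = 0.4). No ratio of Fermt1 to Fermt2 could be formed, since Fermt1 is listed at 0.

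Pxn, the scaffold paxillin, was at 191, 141 and 190.2 CPM in knockout libraries 1 to 3, against 173, 166 and 161 CPM in wild-type libraries 1 to 3 (log2 fold change 0.064, SE 0.127, adjusted p = 0.764). Zyx, zyxin, which marks adhesions under tension, was at 191, 127 and 185 CPM in knockout libraries 1 to 3, against 157, 172 and 149.9 CPM in wild-type libraries 1 to 3 (log2 fold change 0.072, SE 0.155, adjusted p = 0.784). In both genes knockout library 2 was the lowest of all 6 and knockout libraries 1 and 3 were the highest. Ptk2, focal adhesion kinase, was at 145, 165 and 144 CPM in knockout libraries 1 to 3, against 159.7, 174 and 181 CPM in wild-type libraries 1 to 3 (log2 fold change -0.18, SE 0.0957, adjusted p = 0.234), where the opposite held within the knockout and library 2 reached the level of wild-type library 1. Parva, the parvin that joins ILK to actin, was at 169.8, 189 and 169 CPM in knockout libraries 1 to 3, against 138, 165 and 168 CPM in wild-type libraries 1 to 3 (log2 fold change 0.17, SE 0.105, adjusted p = 0.325), with groups that did not overlap by a narrow margin. Ilk, the pseudokinase at the core of that complex, was at 2.32, 0.383 and 2.85 CPM in knockout libraries 1 to 3, against 1.31, 1.87 and 0.836 CPM in wild-type libraries 1 to 3 (log2 fold change 0.46, SE 0.638, adjusted p = 0.664), far below its partner and uneven between libraries. Taf10 and Rrp8 on the opposite strand cover 55.8% and 12.5% of the span of Ilk. The sources used here do not state whether counting used strand, so the level of Ilk is uncertain.

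Much of the spread within the knockout followed 1 library. Across the 21 members with a mean of at least 5 CPM, the log2 difference between knockout library 2 and the mean of knockout libraries 1 and 3 ran from -0.57 for Zyx to 0.32 for Itgav. It was -0.43 for Pxn, -0.37 for Itga7 and -0.27 for Itga2b, against 0.23 for Itga1. Over these 21 genes the difference had a Pearson correlation of -0.76 and a Spearman correlation of -0.83 with the GC content of the gene's transcripts; the points share the same 3 libraries, and no test is given. Zyx has 60.2% GC and Itga1 43.3%. The called genes Itga3 and Itga2b lie at 57.2% and 58.2%, and with the per-library trend removed their log2 fold changes were 0.45 (edgeR adjusted p = 0.0166) and 1.48 (edgeR adjusted p = 0.01005).

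**Figure D4:**
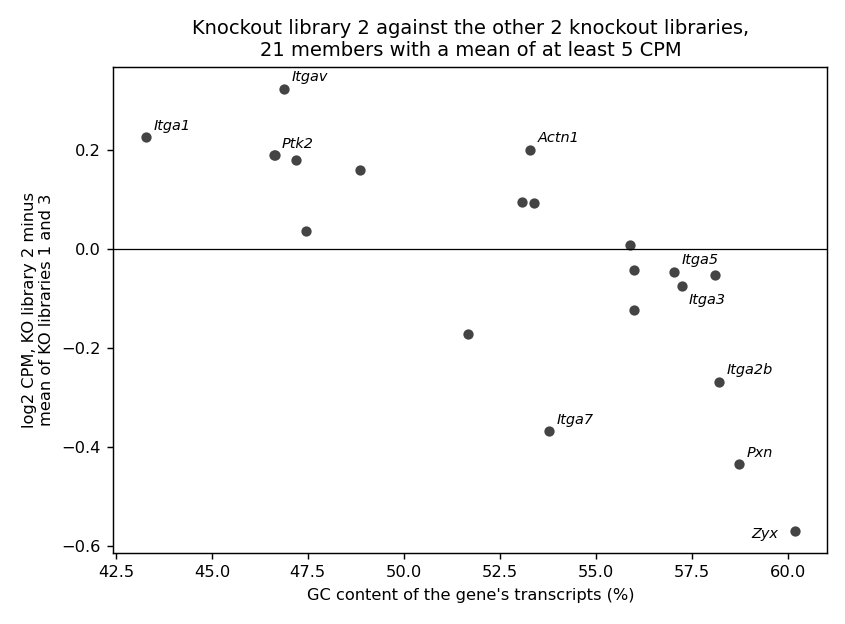
Log2 CPM of knockout library 2 minus the mean of knockout libraries 1 and 3 (vertical axis) against the GC content of each gene's transcripts in percent (horizontal axis), 1 point for each of 21 members. GC-rich genes such as Zyx (-0.57) and Pxn (-0.43) lie low and GC-poor genes such as Itgav (0.32) and Itga1 (0.23) lie high.

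The genes around the integrins were read from 3 lists that hold no member. Counts are set against the 15.2% called among all tested genes, and the median log2 fold change of all tested genes was -0.019. The lists were chosen with earlier results of these data known, so a share above or below 15.2% is no result about a list. Among integrin ligands, 10 of 28 tested genes were called, 7 higher and 3 lower (35.7%, median log2 fold change 0.11). Fn1, fibronectin, the ligand of α5 and αv integrins, was at 188, 202 and 188 CPM in knockout libraries 1 to 3, against 315, 372 and 362 CPM in wild-type libraries 1 to 3 (log2 fold change -0.86, SE 0.0965, adjusted p = 0.00173, edgeR). Spp1, osteopontin, bound by αv integrins, was at 302, 311 and 312 CPM in knockout libraries 1 to 3, against 476, 558 and 519 CPM in wild-type libraries 1 to 3 (log2 fold change -0.75, SE 0.0919, adjusted p = 0.00251), and Agrn, agrin, a basement membrane proteoglycan, at 87.8, 63.6 and 87.0 CPM in knockout libraries 1 to 3, against 193, 169 and 156 CPM in wild-type libraries 1 to 3 (log2 fold change -1.12, SE 0.144, adjusted p = 0.00287). All 3 were lower in every knockout library, and each kept its call in all alternatives run. Matrix genes are also made by fibroblasts: of 8 fibroblast and stellate markers 5 were under 1 CPM in every library, with Thy1 at 0, and the summed CPM was 528 to 639.6 in the knockout and 585 to 685 in the wild type, nearly all of it Col3a1. Within that list and with all 6 libraries in the fit, Col1a1, itself also among the ligands, was called higher, at 15.2 to 24.0 CPM in the knockout and 11.2 to 12.5 CPM in the wild type (log2 fold change 0.81, edgeR adjusted p = 0.0198). Pdgfrb was called lower, at 1.08 to 1.34 CPM in the knockout and 2.24 to 3.78 CPM in the wild type (log2 fold change -1.39, edgeR adjusted p = 0.0153). Among integrin regulators and lateral partners, 7 of 21 tested genes were called, 6 higher and 1 lower (33.3%, median log2 fold change 0.094). Cd82, a tetraspanin that associates with integrins, was at 174, 131 and 178 CPM in knockout libraries 1 to 3, against 72.3, 79.9 and 77.5 CPM in wild-type libraries 1 to 3 (log2 fold change 1.07, SE 0.128, adjusted p = 0.00229). Lgals8, a galectin that binds integrin glycans, was at 53.5, 59.3 and 53.5 CPM in knockout libraries 1 to 3, against 36.1, 34.4 and 34.4 CPM in wild-type libraries 1 to 3 (log2 fold change 0.66, SE 0.0860, adjusted p = 0.00289), and Slc3a2, CD98 heavy chain, which binds beta tails, at 424, 338 and 417 CPM in knockout libraries 1 to 3, against 252, 279.9 and 247 CPM in wild-type libraries 1 to 3 (log2 fold change 0.60, SE 0.114, adjusted p = 0.0120). All knockout libraries were higher in these genes; Slc3a2 missed the threshold with knockout library 1, knockout library 3 or wild-type library 3 dropped (edgeR adjusted p from 0.0551 to 0.0662). The count was 2, 11, 3, 5, 4 and 2 when knockout libraries 1, 2 and 3 and wild-type libraries 1, 2 and 3 were left out in turn. Across the same fits the count over all tested genes moved as well, as given above.

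Among other plaque proteins, 7 of 45 tested genes were called, 3 higher and 4 lower (15.6%, median log2 fold change -0.0035). Arhgef7, the exchange factor β-PIX, was at 92.5, 85.0 and 89.6 CPM in knockout libraries 1 to 3, against 133, 137 and 139 CPM in wild-type libraries 1 to 3 (log2 fold change -0.61, SE 0.0809, adjusted p = 0.00303, edgeR). Tns1, tensin-1, which ties beta tails to actin, was at 50.9, 42.6 and 52.2 CPM in knockout libraries 1 to 3, against 73.8, 83.6 and 74.6 CPM in wild-type libraries 1 to 3 (log2 fold change -0.67, SE 0.106, adjusted p = 0.00602). Both were lower in every knockout library. Fyn, a Src family kinase, was at 72.9, 69.6 and 74.4 CPM in knockout libraries 1 to 3, against 45.9, 55.8 and 51.7 CPM in wild-type libraries 1 to 3 (log2 fold change 0.50, SE 0.0955, adjusted p = 0.0123), higher in every knockout library; it missed the threshold with knockout library 1, knockout library 3 or wild-type library 3 dropped (edgeR adjusted p from 0.0542 to 0.0609). Leaving out 1 library at a time, knockout 1, 2 and 3 and then wild type 1, 2 and 3, gave counts of 3, 11, 2, 7, 3 and 2. Here too the count over all tested genes moved across the same fits.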

How the data were processed

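Bulk RNA-seq values of Hepa1-6 cells, 3 libraries with Matr3 knocked out and 3 of the wild type, came from 1 table of 55573 rows, and groups and library numbers from the sample titles. Each library has a raw count per gene, which the authors deposited and which is whole in every row. Each also has an FPKM, computed by the authors and used only to set genes side by side per length. The authors' own comparison has 3 kinds of value in the table: a deposited signal, the mean scaled count of a group, a deposited log2 fold change, and a deposited p-value, raw and adjusted. Calls credited to the authors are those with their adjusted p under 0.05. No source used here names the aligner, the counter, the strand setting or the annotation. The submitters' processing notes give GRCm38 and mm10 as builds, yet 1546 of 52133 identifiers found in GENCODE M21, a GRCm38 annotation, keep their coordinates there, and 1 of 40 members. The text gives coordinates as the table has them, in a build that could not be settled.

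The count test was edgeR 4.0.16 (R 4.3.3): filterByExpr, TMM scaling and a quasi-likelihood F test of knockout over wild type without covariates. Its p-values were adjusted by Benjamini-Hochberg over all 14842 tested genes and called under 0.05. Unless another tool is named, fold changes, standard errors (SE, from the F statistic) and adjusted p in the text are from this fit. CPM use the TMM-scaled library. The code was tested on simulated counts. Library pairs of 1 group correlated at 0.986 to 0.998 in log2 CPM and differed by more than counting noise. Chi-square per gene ran from 3.41 to 65.7 within groups, highest for knockout libraries 2 and 3, and from 43.0 to 74.2 across groups.

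The members and gene lists were chosen with earlier results of these data known, so no p is adjusted over them alone. Values in every library are given for called members, the 12 plaque and linker genes and integrins averaging 5 CPM or more; Itga2, Icam1 and the single marker genes given with values were added after their values were seen. From each list up to 3 called genes with the smallest p are named. A further list is not reported here. Alternatives were RLE size factors, library totals, no filter, a 1 CPM minimum, only protein-coding genes, a replicate block, each library left out, knockout library 2 and wild-type library 1 left out together, DESeq2 1.42.0, limma 3.58.1 (voom, and log2(FPKM + 1)), an adjusted p of 0.01 and, added after seeing the data, a fit with each library's GC and length trend taken out.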

Additional observations from a re-analysis of the deposited data

How the results depend on the processing

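The count of all called genes was 721 at an adjusted p of 0.01 and 7556 with knockout library 2 and wild-type library 1 left out, and it ranged from 807 to 4295 with 1 library left out, against 2252. Members called numbered 1 (Itga3) at an adjusted p of 0.01, 5 with protein-coding genes only or once the GC and length trend was removed (Itga1 and Itga2 beside the 3), 16 with both libraries left out, and 1 to 5 with 1 left out, against 3. In the other alternatives the count of members stayed within 1.5 times. The cause was not tested, beyond the fewer libraries or genes or the stricter threshold of the alternative itself.

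Of 457 log2 fold changes of single members under alternatives, 411 kept direction and side of the threshold, 9 lost a call, 23 gained one and 14 changed sign, mostly from values near 0. With no filter Itgb2 was at 0.0056 and Actn1 at 0.012, and with limma voom Itgae at 0.087. Over the 6 fits without 1 library and the fit without knockout library 2 and wild-type library 1, the log2 fold change ran from -0.096 to 0.035 for Itgb2, from -1.29 to 0.055 for Itgb4, from -0.46 to 0.29 for Itga10, from -0.55 to 0.61 for Itgae, from -0.0069 to 0.14 for Tln1, from -0.16 to 0.037 for Actn1 and from -0.00076 to 0.24 for Zyx. At a 1 CPM minimum Itgae and Itgal were too low to test.

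With the replicate block 1599 genes and the same 3 members were called. Deviations of same-numbered libraries correlated at 0.25, -0.037 and -0.34 for numbers 1, 2 and 3, and those of unlike number at -0.37 to 0.42. With 3 libraries per group these values cannot tell whether the numbers mark a shared batch. Intervals and limits on 0 counts cover counting error only, since the table holds reads and not identified molecules. Itgal, Itgae, Itgb4 and Ilk rest on few counts.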
